A study of Mus musculus with 7 samples.

Results

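The lysyl oxidases Lox and Loxl1 to Loxl4 and the lysyl hydroxylases Plod1 to Plod3 make up the enzyme families that prepare and form the covalent crosslinks of collagen. These 8 genes were chosen by name from the 53465 genes of the table, and all 8 passed the filter on low counts, as did 15645 genes in all. RNA was sequenced from tissue of tumors that grew after EMT6 mouse mammary carcinoma cells (500000 per mouse) were placed into the mammary fat pad of female BALB/c mice, aged 6 to 8 weeks. The 3 EMT6-P tumors grew under isotype control antibody, and the 3 EMT6-PTR tumors (variant EMT6 PDR in the labels) grew under αPD-L1 antibody, in each case at 250 μg per mouse every 3 days to the institutional endpoint. Per the study's methods, the resistant variant was selected from tumors that resumed growth after an initial delay, so EMT6-PTR differed from EMT6-P in both selection and treatment. A further library came from 1 metastasis of the resistant variant under αPD-L1 (the EMT6-PTR metastasis), whose site the labels do not name and whose source is given as breast tumor tissue. The labels number the libraries of a group without naming the animals, and the study's legends call replicates technical where nothing else is said, so the 3 libraries of a group, called tumors below, may not be separate animals. The p-values measure only the spread between these libraries, which may be technical. Libraries were from bulk tissue, in which fewer cells of a type and less RNA per cell cannot be told apart, and in which tumor and host cells contribute to the same value.

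Lysyl hydroxylases act inside the endoplasmic reticulum, where they hydroxylate lysines of procollagen. The hydroxylysines carry sugars and give rise to the most stable crosslinks. Plod2 (lysyl hydroxylase 2) modifies lysines of the collagen telopeptides, Plod1 (lysyl hydroxylase 1) those of the triple helix, and Plod3 (lysyl hydroxylase 3) has a glycosyltransferase activity as well. Lysyl oxidases are secreted copper enzymes that oxidize lysine and hydroxylysine to reactive aldehydes in the matrix, from which crosslinks form. Lox acts on fibrillar collagen and elastin, Loxl1 is tied to elastic fibers, and Loxl2, Loxl3 and Loxl4 form a subfamily with scavenger receptor domains, of which Loxl2 acts on collagen IV of basement membranes. In solid tumors, the families are known for collagen stiffening and for hypoxia-induced expression of several members.

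Total estimated counts ranged from 20430110 to 25213472 per library, and all values below are CPM on an upper-quartile scale common to the 7 libraries, unless another unit is named. The members had between 393 and 11570 estimated counts per library. Libraries differed in their markers of other cell types. Among the primary tumors, the summed level of 10 fibroblast markers was 21518 CPM in EMT6-PTR replicate 3 and 5887 to 9588 CPM in the others. The collagen genes Col1a1, Col1a2 and Col3a1 are among the 10 and held most of the sum in every library. In EMT6-PTR replicate 3 they were at 2755, 4835 and 9088 CPM. In EMT6-PTR replicate 3, 7 of the 10 lay above and 2 below all EMT6-P tumors (39.8% and 42.7% of all genes tested). The low ones were Thy1 (6.68 CPM, against 63.2 to 114 CPM in EMT6-P) and Pdpn (39.3 CPM, against 70.0 to 77.4 CPM). The 7 carcinoma and epithelial markers summed to 615 CPM in that tumor, against 2386 to 2732 CPM in the others. Krt8 alone held 505 CPM of the 615. Of the 7, 0 lay above and 4 below all EMT6-P tumors there (39.8% and 42.7% of all genes tested). Epcam, Krt19 and Krt5 lay within the EMT6-P range. The 7 smooth muscle and pericyte markers summed to 99.6 CPM in the same tumor, against 726 to 1234 CPM, with Cnn1 at 0. EMT6-PTR replicate 1 held 4069 CPM of 7 skeletal muscle markers, against 629 CPM in EMT6-P replicate 1, 358 CPM in EMT6-P replicate 3 and at most 11.6 CPM in the other primary tumors. In EMT6-PTR replicate 2 a single gene took 13.8% of all counts, against 1.13% to 1.39% in the other libraries, and its upper-quartile factor was the lowest of the 7, at 0.880. The metastasis held 8947 CPM of 8 lung epithelial markers, against 9.89 to 35.3 CPM in the primary tumors, and 858 CPM of 6 endothelial markers, against 117 to 163 CPM. The summed level of 8 leukocyte markers was 401 CPM in EMT6-PTR replicate 3 and 563 to 741 CPM in the other primary tumors. It was 1104 CPM in the metastasis, where S100a8 alone held 585 CPM, against 3.77 to 16.7 CPM in the primary tumors. Of the 7 tested leukocyte markers, 4 lay above and 3 below all EMT6-P tumors in the metastasis (39.8% and 43.2% of all genes tested). Adipocyte, tendon and cartilage, and bone markers summed to at most 120 CPM in every library. Of these lists, the defining markers Plin1, Tnmd and Sp7 were below 1 CPM throughout, whereas Scx was at 11.4 to 51.5 CPM, Sox9 at 35.8 to 83.7 CPM and Runx2 at 48.5 to 73.2 CPM in the primary tumors, and Alpl reached 57.0 CPM in EMT6-PTR replicate 2. Comp, of the tendon and cartilage list, was higher in every EMT6-PTR tumor, at 0.785, 2.17 and 21.96 CPM against 0.093 to 0.519 CPM, and was called by DESeq2 and not by edgeR's quasi-likelihood test.

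Lox was the member that was higher in every EMT6-PTR tumor. It stood at 138, 144 and 142 CPM in EMT6-P replicates 1 to 3 and at 218, 408 and 452 CPM in EMT6-PTR replicates 1 to 3. The groups did not overlap, and the lowest EMT6-PTR value was 1.54 times the EMT6-P mean, while the highest was 3.20 times that mean. Loxl4 was the member that was lower in every EMT6-PTR tumor, with 38.9, 49.8 and 50.8 CPM in EMT6-P and 36.2, 31.7 and 15.4 CPM in EMT6-PTR. Its groups lay close together, and EMT6-PTR replicate 3 accounted for the lowest value. The other 6 members overlapped between the groups.

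**Figure D1:**
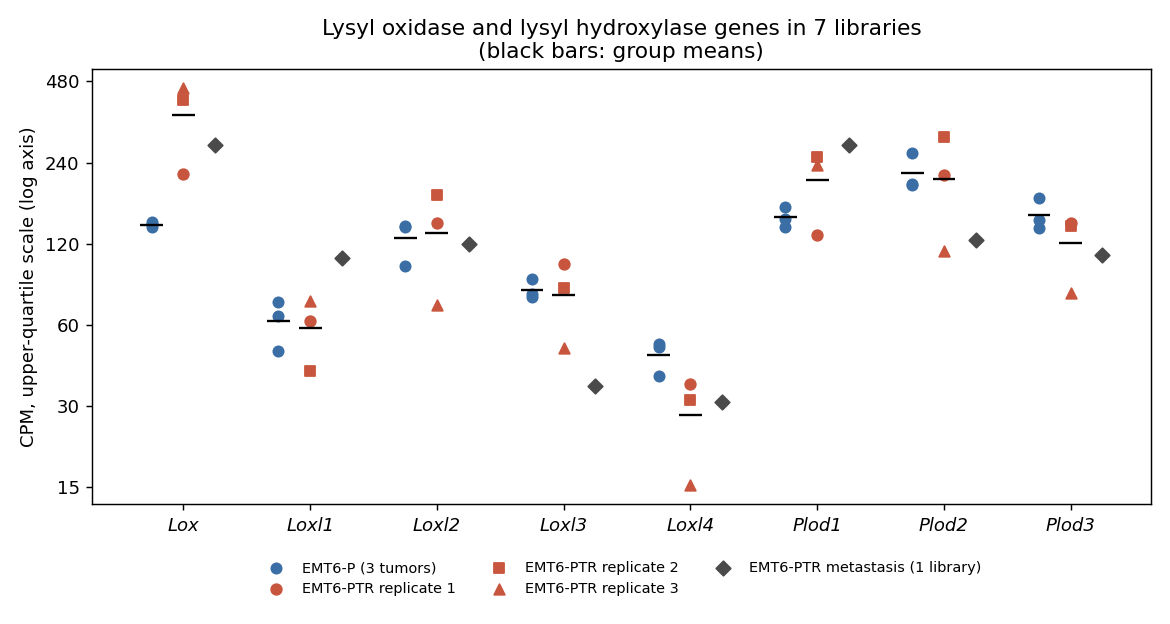
CPM on the upper-quartile scale (log axis) of the 8 genes in each library, with EMT6-P tumors in blue, EMT6-PTR tumors in red by replicate, the metastasis in gray and black bars at the group means. Lox lies at 138 to 144 CPM in EMT6-P and at 218 to 452 CPM in EMT6-PTR, and Loxl4 lies at 38.9 to 50.8 and 15.4 to 36.2 CPM.

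In edgeR's quasi-likelihood test, Benjamini-Hochberg adjustment over all genes tested left none of the 8 members with an adjusted p below 0.05, and the share of genes called was 0% in either direction. The number of genes with an unadjusted p under 0.05 was 914 (5.84%) higher and 872 (5.57%) lower. Lox was 1 of the former and the single member with such a p. Mean levels were 141.3 ± 3.14 CPM in EMT6-P against 359.4 ± 124.4 CPM in EMT6-PTR (SD, n = 3 each), and the log2 fold change was 1.35 with a standard error of 0.28. Its unadjusted p of 0.00227 was the 50th smallest of 15645 genes, and its adjusted p in the quasi-likelihood test was 0.421. With DESeq2, which called 0.882% of genes higher and 0.914% lower, Lox was the single member called, with an estimate of 1.37 on the log2 scale (standard error 0.31) and an adjusted p of 0.00266. With limma-voom, which called no gene, the adjusted p of Lox was 0.465. At an unadjusted p under 0.05, DESeq2 held 8.04% of genes higher and 6.03% lower and limma-voom 4.21% and 6.16%, and in each of these tools Lox was 1 of the former and Loxl4 1 of the latter. The log2 fold change of Lox was 1.60 without EMT6-PTR replicate 1, the tumor with the most skeletal muscle transcripts. It was 1.15 without EMT6-PTR replicate 3, the tumor with the highest summed fibroblast markers. The adjusted p-values were 0.098 and 0.125 in edgeR's quasi-likelihood test. Leaving out EMT6-PTR replicate 2 gave 1.25. The summed fibroblast markers of EMT6-PTR replicates 1 to 3, mostly collagen transcripts, at 6922, 9588 and 21518 CPM, were in the same order as Lox. This order did not hold over all 7 libraries. EMT6-P replicate 3 had 7854 CPM, above EMT6-PTR replicate 1, with Lox at 142 CPM. The metastasis had 13381 CPM, above EMT6-PTR replicate 2, with Lox at 280 CPM. The part of cell composition in the difference was not tested.

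For Loxl4 the estimate was -0.74 on the log2 scale, with a standard error of 0.32 and, from edgeR's quasi-likelihood test, an adjusted p of 0.444. It was -0.45 when EMT6-PTR replicate 3 was left out. Of all genes tested, 9.52% were higher and 11.8% lower in EMT6-PTR without overlap, against 1 of 8 members in each direction. Lox was the member at least 2-fold higher (6.27% of all genes), and no member was at least 2-fold lower (1.29%). The median log2 fold change was -0.064 over the 8 members and 0.025 over all genes tested, with 3 members above 0 and 5 below.

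**Figure D2:**
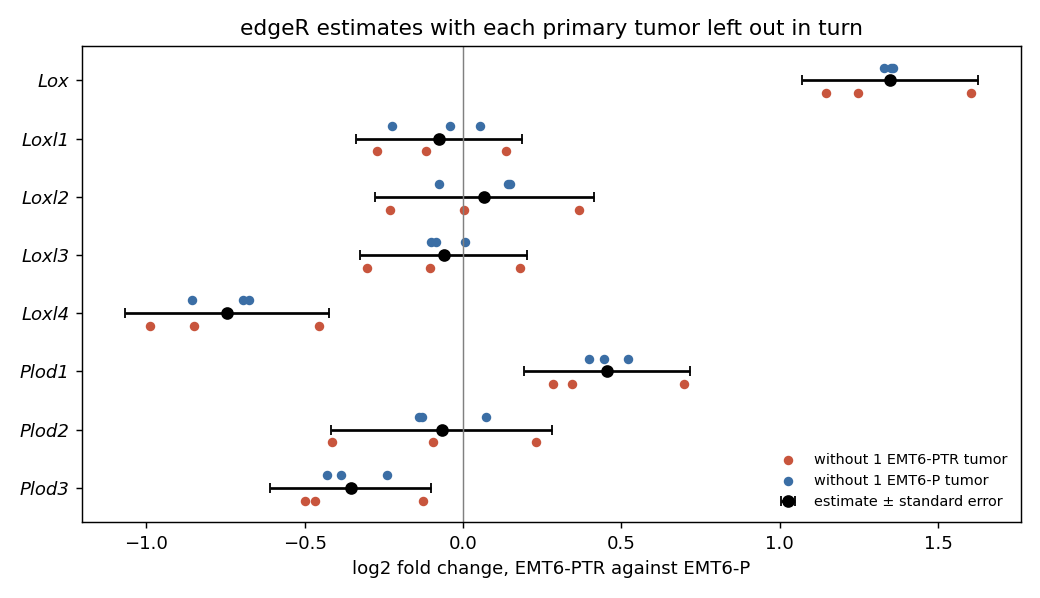
The log2 fold change of EMT6-PTR against EMT6-P for each gene from edgeR, with its standard error (black), and the same estimate with 1 EMT6-PTR tumor (red) or 1 EMT6-P tumor (blue) left out. Lox stays between 1.15 and 1.60 and Loxl4 between -0.99 and -0.45, while estimates for Loxl1, Loxl2, Loxl3 and Plod2 lie on either side of 0.

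Loxl2 and Loxl3 showed opposite directions among the EMT6-PTR tumors. Loxl2 was at 99.4, 140 and 138 CPM in EMT6-P and at 143, 181 and 71.2 CPM in EMT6-PTR. Replicates 1 and 2 lay above and replicate 3 below all EMT6-P tumors, and the log2 fold change was 0.067 (standard error 0.35). Loxl3, which is required for normal palate and spine development, was at 76.2, 88.6 and 78.2 CPM in EMT6-P and at 101, 82.5 and 49.2 CPM in EMT6-PTR, with a log2 fold change of -0.061 (standard error 0.26). Here replicate 1 lay above and replicate 3 below the EMT6-P range. Loxl1 was at 48.2, 72.7 and 64.5 CPM in EMT6-P and at 61.8, 40.4 and 73.6 CPM in EMT6-PTR. For Loxl1 replicate 2 was the low tumor and replicate 3 the high one, and the log2 fold change was -0.076 (standard error 0.26). In edgeR's quasi-likelihood test these 3 genes had adjusted p-values of 0.921 to 0.946.

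Among the lysyl hydroxylases, Plod1 was higher in 2 of the 3 EMT6-PTR tumors. Its levels were 138, 164 and 149 CPM in EMT6-P and 130, 252 and 236 CPM in EMT6-PTR, so that replicate 1 lay below and replicates 2 and 3 above all EMT6-P tumors. The log2 estimate was 0.45 with a standard error of 0.26 (edgeR's quasi-likelihood test, adjusted p 0.516), and leaving out EMT6-PTR replicate 1 or 2 gave 0.70 or 0.29. Plod2 was at 197, 261 and 200 CPM in EMT6-P and at 216, 299 and 113 CPM in EMT6-PTR, with replicate 2 highest and replicate 3 lowest of all primary tumors. Its log2 fold change was -0.068 (standard error 0.35). Plod3 was at 147, 178 and 137 CPM in EMT6-P and at 143, 139 and 79.1 CPM in EMT6-PTR. Here replicates 1 and 2 fell within the EMT6-P range and replicate 3 below it (log2 fold change -0.35, standard error 0.25, adjusted p 0.583 in edgeR's quasi-likelihood test). Without replicate 3 the log2 fold change of Plod3 was -0.13.

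The spread was wider in EMT6-PTR than in EMT6-P for all 8 members, by the coefficient of variation, as it was for 82.8% of all genes tested. The coefficient of variation of Lox was 2.22% among EMT6-P tumors and 34.6% among EMT6-PTR tumors. That of the other members was 8.24% to 20.2% in EMT6-P and 28.7% to 44.7% in EMT6-PTR. In EMT6-PTR replicate 1, 3 members were above and 2 below all EMT6-P tumors, against 32.6% and 32.5% of all genes tested. In replicate 2 these counts were 4 and 2 (33.8% and 38.1% of all genes), and in replicate 3 they were 3 and 5 (39.8% and 42.7%). The 5 low members of replicate 3 were Loxl2, Loxl3, Loxl4, Plod2 and Plod3, at 0.330 to 0.607 times the EMT6-P mean, beside Lox at 3.20 times.

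**Figure D3:**
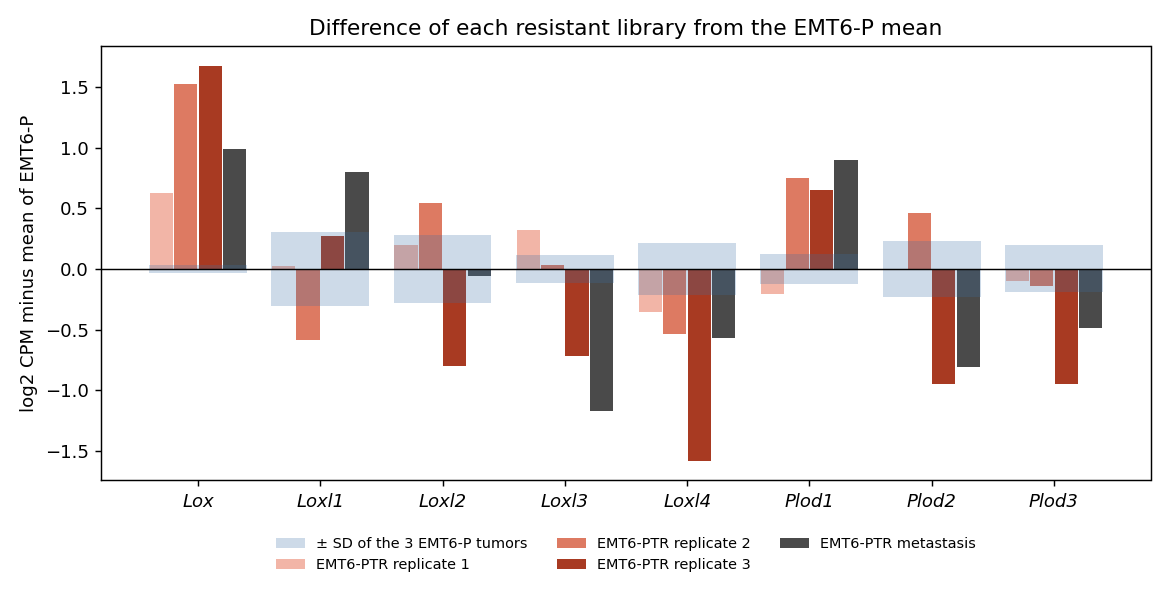
Log2 CPM (prior count 2) of each gene in the 3 EMT6-PTR tumors and the metastasis, minus the mean of the 3 EMT6-P tumors, with the blue band at ± SD of the EMT6-P tumors. Bars for Lox are above 0 and bars for Loxl4 below 0 in every resistant library, and the bar of EMT6-PTR replicate 3 reaches 1.68 for Lox and -1.58 for Loxl4.

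The makeup of the lysyl oxidase family was compared per length, as CPM per kb of annotated exon. On this scale, Lox had the highest mean of the lysyl oxidases in EMT6-P with 29.6 ± 0.66 CPM per kb (SD, n = 3), followed by Loxl2 (23.3 ± 4.2), Loxl1 (18.7 ± 3.8), Loxl3 (17.6 ± 1.4) and Loxl4 (11.0 ± 1.6). The ranges of Loxl2, Loxl1 and Loxl3 overlapped from each gene to the next, whereas Lox lay above and Loxl4 below them. This order depended on the length used, as given below. In EMT6-PTR, Lox stood at 75.2 ± 26.0 CPM per kb, and Loxl2, Loxl1, Loxl3 and Loxl4 at 24.4 ± 10.3, 17.8 ± 5.1, 16.9 ± 5.7 and 6.6 ± 2.6. Lox made up 32.9%, 27.6% and 28.6% of the family's summed level in EMT6-P replicates 1 to 3 and 37.6%, 54.5% and 65.5% in EMT6-PTR replicates 1 to 3. Loxl4 made up 10.5% to 11.6% in EMT6-P, against 2.52% to 7.07% in EMT6-PTR. With mean transcript length in place of exonic length, Lox made up 19.4% to 23.0% in EMT6-P and 27.1% to 56.9% in EMT6-PTR. The order turned with that length, since Loxl3 made up 28.4% to 32.4% in EMT6-P and lay above Lox there and in EMT6-PTR replicate 1 (32.1%). Loxl4, at 15.1% to 16.9% in EMT6-P, then lay above Loxl1 at 11.2% to 13.7%. The family's summed level was 87.7 to 109 CPM per kb in EMT6-P and 121 to 157 CPM per kb in EMT6-PTR.

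Of the lysyl hydroxylases, Plod2 had the highest mean per kb of exon in EMT6-P, at 40.7 ± 6.7 CPM per kb, with Plod3 at 34.1 ± 4.7 and Plod1 at 22.2 ± 2.0. The ranges of Plod2 and Plod3 overlapped, and Plod1 lay below both. With mean transcript length, the shares of Plod1 and Plod3 lay close in EMT6-P. Plod1 was above Plod3 in replicate 1 (31.4% against 31.0%) and replicate 3 (33.5% against 28.8%). It was just below Plod3 in replicate 2 (29.98% against 30.13%). In EMT6-PTR the 3 genes stood at 38.8 ± 17.4, 26.7 ± 7.9 and 30.4 ± 9.8 CPM per kb, with overlapping ranges. Plod1 made up 21.7% to 24.6% of the family in EMT6-P and 21.1%, 30.2% and 47.6% in EMT6-PTR replicates 1 to 3. Plod2 made up 40.9% to 43.2% in EMT6-P and 44.1%, 44.9% and 28.5% in EMT6-PTR. In replicate 3 the order was therefore Plod1 above Plod2 above Plod3.

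**Figure D4:**
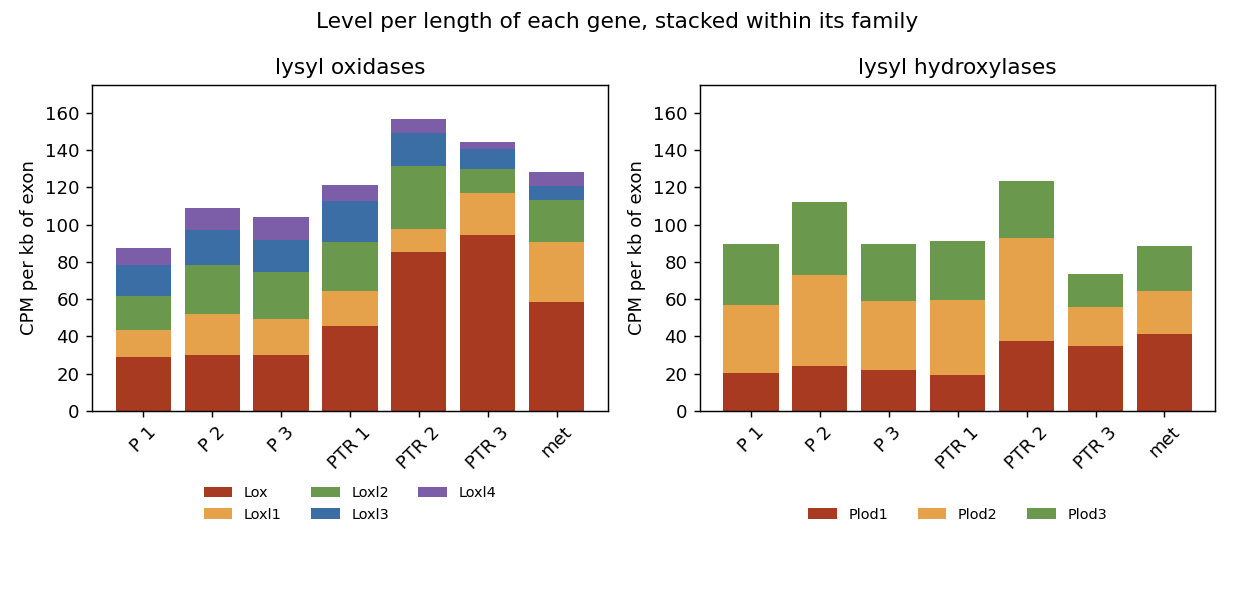
CPM per kb of exon of each gene, stacked within the lysyl oxidases (left) and the lysyl hydroxylases (right), for the 3 EMT6-P tumors (P), the 3 EMT6-PTR tumors (PTR) and the metastasis (met). The Lox part of the column is 28.9 to 30.2 CPM per kb in EMT6-P, 45.6 to 94.6 in EMT6-PTR and 58.6 in the metastasis.

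The metastasis carried high Lox together with the highest Loxl1 and Plod1 of the series. Lox was at 280 CPM, within the EMT6-PTR range and 1.98 times the EMT6-P mean. Loxl1 was at 106 CPM, 1.81 times the EMT6-PTR mean, and Plod1 at 279 CPM, 1.35 times that mean, and both lay above all 6 primary tumors. Loxl3 was at 35.8 CPM, 0.461 times the EMT6-PTR mean and below all 6 primary tumors. Of all genes tested, 20.9% lay above and 24.1% below all 6 primary tumors, so that 2 and 1 of 8 members are near the background. Loxl2 at 120 CPM, Loxl4 at 31.1 CPM, Plod2 at 124 CPM and Plod3 at 109 CPM were within the primary range. Plod1 made up 46.7% of the lysyl hydroxylases per length and Plod2 26.0%. Elastin (Eln), a substrate of Lox and Loxl1, was at 597 CPM in the metastasis and 16.2 to 146 CPM in the primary tumors. The lung epithelial and endothelial markers given above were high in the same library, and their part in these levels was not tested. A single library allowed no test.

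Other genes of collagen modification were compared in the same fit, in lists chosen for their known roles. In edgeR's quasi-likelihood test none of them was called, and with DESeq2 the single gene called was Col11a1. The 10 prolyl hydroxylation genes had a median log2 fold change of -0.094 (4 positive, 6 negative), no unadjusted p under 0.05 and no gene whose groups were apart. Their smallest p-values were those of P3h4, P3h3 and P4hb, at log2 fold changes of -0.29, 0.34 and -0.17. Of 9 genes of collagen folding and glycosylation, 5 were above 0 and 4 below (median 0.036), led by Tmem38b at 0.64, Fkbp7 at 0.64 and Colgalt1 at -0.19. None of these 9 genes had an unadjusted p under 0.05.

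The list of propeptide processing and lysyl oxidase activation had a median of -0.23 over its 9 tested genes, with 1 gene at an unadjusted p under 0.05. Pcolce2, an enhancer of procollagen C-proteinase, was at 25.9 to 32.1 CPM in EMT6-P and at 20.0, 14.8 and 8.09 CPM in EMT6-PTR, without overlap (log2 fold change -1.07, standard error 0.33, adjusted p 0.421 in edgeR's quasi-likelihood test). For Postn (periostin), a matrix protein that interacts with Bmp1, the protease that activates Lox, the log2 estimate was 1.69 with a standard error of 0.88. It was at 5715 CPM in EMT6-PTR replicate 3 and at 438 to 998 CPM in the other primary tumors. Tll1, a protease related to Bmp1, was below 1 CPM in every primary tumor, with a log2 fold change of 0.72.

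Among 12 tested collagen and elastin substrates, 8 were above 0 and 4 below (median 0.10), and 3 had an unadjusted p under 0.05 and were at least 2-fold higher. These were Col11a1, Eln and Col3a1, with log2 fold changes of 4.26, 1.73 and 2.15 and standard errors of 1.31, 0.62 and 0.81 (adjusted p 0.421, 0.427 and 0.431 in edgeR's quasi-likelihood test). EMT6-P and EMT6-PTR overlapped for each of them. Col3a1 was at 9088 CPM in EMT6-PTR replicate 3, while Col1a1 was at 2755 CPM there and at 2427 to 3708 CPM in the other primary tumors. The ratio of Lox to Col1a1 CPM, formed after the values were seen, was 0.057, 0.054 and 0.044 in EMT6-P and 0.073, 0.1101 and 0.164 in EMT6-PTR. The groups did not overlap in this ratio, whereas for Lox to Col3a1 they did, with 0.122 to 0.196 in EMT6-P and 0.229, 0.204 and 0.050 in EMT6-PTR.

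The list of elastic fiber adaptors held 1 gene with an unadjusted p under 0.05, and that of copper supply 1 in each direction. Efemp2 (fibulin 4), which brings Lox to elastic fibers, was at 137 to 143 CPM in EMT6-P and 98.0 to 111 CPM in EMT6-PTR, without overlap (log2 fold change -0.39, standard error 0.12, adjusted p 0.421 in edgeR's quasi-likelihood test). Ltbp4 and Mfap4 followed in its list of 7 genes at 0.89 and 0.36, and the median was -0.0085. Atp7a, which pumps copper into the secretory pathway where lysyl oxidases are loaded, was at 7.07 to 10.1 CPM in EMT6-P and at 14.8, 21.2 and 9.22 CPM in EMT6-PTR. Atox1, the chaperone that hands copper to Atp7a, was at 65.1 to 80.4 CPM in EMT6-P and at 45.8 to 56.2 CPM in EMT6-PTR, without overlap. The log2 estimates were 0.90 for Atp7a (standard error 0.34) and -0.58 for Atox1 (standard error 0.15), where edgeR's quasi-likelihood test gave adjusted p-values of 0.432 and 0.421. Steap4, a metalloreductase, was at 0.67. Transglutaminases, which crosslink proteins by another chemistry, had 3 tested members of 8, Tgm1, Tgm2 and F13a1, at log2 fold changes of 0.94, 0.26 and 0.19.

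Several members are known targets of hypoxia-inducible factors and of TGF-β. The median of 16 hypoxia response genes lay -0.10, 0.60 and -0.54 from the EMT6-P mean in EMT6-PTR replicates 1 to 3 on the log2 scale. Plod2 lay at -0.01, 0.46 and -0.95. Loxl2 followed the same order of the 3 tumors at 0.20, 0.55 and -0.80, and Lox did not, at 0.63, 1.53 and 1.68. The metastasis did not fall into this order. Its hypoxia median lay at 0.36, with Plod2 at -0.81 and Loxl2 at -0.06. None of the 16 genes had an unadjusted p under 0.05, and the smallest were those of Kdm3a, Pdk1 and Pgk1, at log2 fold changes of 0.41, 0.30 and -0.29. The median of a list of 12 TGF-β genes lay at 0.14, 0.37 and -0.48 in EMT6-PTR replicates 1 to 3. Beside response genes, this list holds the ligands Tgfb1, Tgfb2 and Tgfb3 and the receptors Tgfbr1 and Tgfbr2. Of the 12 genes, 2 had an unadjusted p under 0.05, Ccn2 and the ligand Tgfb3. Ccn2, a secreted TGF-β target, was at 262 to 291 CPM in EMT6-P and at 332, 673 and 2810 CPM in EMT6-PTR, the same order of tumors as for Lox (log2 fold change 2.18, standard error 0.75, adjusted p 0.427 in edgeR's quasi-likelihood test). The metastasis did not fall into this order. Ccn2 was at 1017 CPM there, above EMT6-PTR replicate 2, whereas Lox, at 280 CPM, was below that replicate. Tgfb3 and Tgfbr1 had log2 fold changes of 0.51 and 0.37. The lists' part in the levels of the members was not tested.

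Promoter sequences of 3 of the 8 members were matched by symbol in RefSeq on GRCm38.p6, those of Loxl4, Plod1 and Plod3, each with 250 bases before and 50 after the start of the gene. They are shown because hypoxia-inducible factors bind the core letters ACGTG or GCGTG. Capitals mark each match on either strand (on the minus strand of the window they read CACGT and CACGC). The windows lie at chr19:42612757-42613056 (minus strand), chr4:147936727-147937026 (minus strand) and chr5:136986769-136987068 (plus strand), and are written 5′ to 3′ on the strand of the gene.
Loxl4: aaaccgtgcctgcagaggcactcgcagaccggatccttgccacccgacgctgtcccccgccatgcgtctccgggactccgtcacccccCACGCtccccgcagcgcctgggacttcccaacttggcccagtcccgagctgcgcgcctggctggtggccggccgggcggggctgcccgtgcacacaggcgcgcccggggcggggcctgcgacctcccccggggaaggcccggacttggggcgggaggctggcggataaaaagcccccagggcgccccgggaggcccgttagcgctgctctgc
Plod1: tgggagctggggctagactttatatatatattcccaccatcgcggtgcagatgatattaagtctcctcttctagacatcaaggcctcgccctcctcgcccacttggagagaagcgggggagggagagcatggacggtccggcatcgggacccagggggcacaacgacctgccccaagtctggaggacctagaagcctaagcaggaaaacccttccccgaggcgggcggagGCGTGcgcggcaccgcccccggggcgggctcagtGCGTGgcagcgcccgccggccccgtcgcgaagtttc
Plod3: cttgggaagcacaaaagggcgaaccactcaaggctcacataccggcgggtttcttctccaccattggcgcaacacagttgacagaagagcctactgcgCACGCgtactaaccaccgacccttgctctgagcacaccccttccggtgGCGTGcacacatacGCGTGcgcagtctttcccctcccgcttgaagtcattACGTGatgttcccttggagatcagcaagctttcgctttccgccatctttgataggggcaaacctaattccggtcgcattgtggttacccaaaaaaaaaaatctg
The window of Loxl4 held 1 match, that of Plod1 held 2 and that of Plod3 held 4. Of 32851 promoters of the same length, 43.8% held at least 1 match, 20.6% at least 2 and 3.86% at least 4. A match is a string of letters and no measure of binding.

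Patterns over the 7 libraries were compared by the root mean square difference of log2 CPM around each gene's mean, as a description without a test. Closest to Lox were Lpar5, a receptor of lysophosphatidic acid, at 0.13, Pcdhb21 at 0.15 and Cgnl1 at 0.19, where Lox itself varied by 0.68 around its mean. Of these, Lpar5 and Pcdhb21 were below 5 CPM in every library, and Cgnl1 was at 119 to 131 CPM in EMT6-P and at 149, 247 and 369 CPM in EMT6-PTR. Closest to Plod1 were Anxa11 (0.088), Lmo4 (0.091) and Stard5 (0.13), and closest to Plod2 were Rhbdd1, Gm12696 and Gm5171 (each 0.12). Plod3 was closest to Atf6b (0.058), a transcription factor of the unfolded protein response, followed by Gm7180 (0.062) and Zbtb7b (0.064). Loxl1 was closest to Gm44662 (0.10), Gramd1c (0.13) and Iscu (0.13), Loxl2 to Ang (0.10), Spon1 (0.13) and Iqgap1 (0.13), Loxl3 to Gm13498 (0.071), Zfp946 (0.078) and Mreg (0.078), and Loxl4 to Chrnb1 (0.12), Tpm3-rs7 (0.14) and Tm4sf1 (0.16). Among pairs of members, Plod2 and Plod3 were closest (0.26), followed by Loxl4 and Plod3 (0.27). With 15645 genes and 7 libraries, close neighbors exist for most genes.

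**Figure D5:**
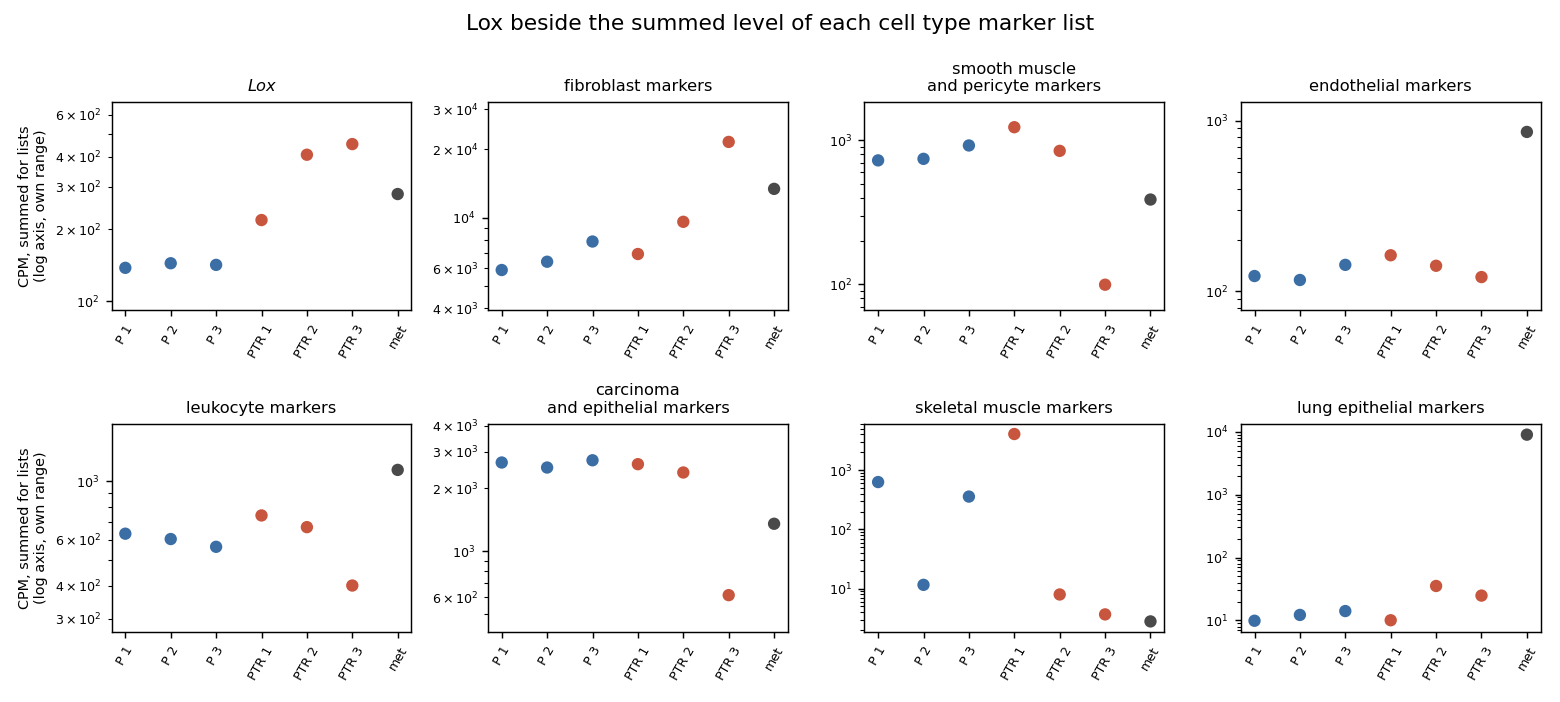
CPM of Lox and the summed CPM of 7 lists of cell type markers in each library, on log axes with their own range, with EMT6-P in blue, EMT6-PTR in red and the metastasis in gray. EMT6-PTR replicate 3 has the highest Lox (452 CPM) and fibroblast marker sum (21518 CPM) and the lowest epithelial marker sum (615 CPM), while EMT6-PTR replicate 2 has Lox at 408 CPM with an epithelial marker sum of 2386 CPM and a fibroblast marker sum of 9588 CPM, above all EMT6-P tumors. The fibroblast sums of EMT6-PTR replicates 1 to 3 (6922, 9588 and 21518 CPM), mostly collagen transcripts, run in the same order as Lox. Those of EMT6-P replicate 3 (7854 CPM) and the metastasis (13381 CPM) do not fall into that order.

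The genes lie on 7 chromosomes of GRCm38. Lox is on chromosome 18, Loxl1 on chromosome 9 from 58287738 to 58313186, Loxl2 on chromosome 14 from 69609068 to 69695834, Loxl3 on chromosome 6 from 83034173 to 83052562 and Loxl4 on chromosome 19 from 42593982 to 42612813. Plod1 is on chromosome 4 from 147909753 to 147936767, Plod2 on chromosome 9 from 92542223 to 92608428 and Plod3 on chromosome 5 from 136987019 to 136996648. The values count reads over whole genes, and do not separate isoforms. Estimated counts of Lox, Loxl1, Loxl4 and Plod1 were whole numbers in all 7 libraries. Those of Loxl2, Loxl3, Plod2 and Plod3 were fractional in all 7, which RSEM gives where reads are shared among genes. These 4 genes overlap others on the opposite strand in the annotation, as does Lox, among them Htra2 for Loxl3 and Znhit1 for Plod3, with log2 fold changes of -0.12 (standard error 0.27) and -0.46 (standard error 0.16). The strand setting of the counting is not given in the sources used here, so values of overlapping genes are less certain.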

How the data were processed

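RNA of 7 libraries (3 EMT6-P tumors, 3 EMT6-PTR tumors, 1 EMT6-PTR metastasis) was made into stranded polyadenylated libraries by the authors. Per the labels and the methods, reads were checked with FastQC 0.11.5, aligned to GRCm38 (GENCODE M16) with STAR 2.6.0a and quantified with RSEM 1.3.1. The deposited values are estimated counts per gene that the authors obtained with RSEM, not filtered or normalized, of which 13.5% to 15.6% per library are fractional. Symbols, positions and lengths were from GENCODE M21 of the same assembly.

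Counts were rounded. The 6 primary tumors entered edgeR 4.0.16 (R 4.3.3) after filterByExpr, with upper-quartile scaling, glmQLFit and glmQLFTest. Genes were called at a Benjamini-Hochberg adjusted p below 0.05. The standard error is the log2 fold change divided by the square root of F. CPM used factors common to 7 libraries, set by the genes tested, and log2 CPM a prior count of 2. Lengths are the union of exons. Alternatives were TMM, DESeq2 1.42.0, limma-voom (limma 3.58.1), other filters, the metastasis as a group of its own, the replicate block and leaving out each tumor. A count of 0 allows up to 3 counts, 0.117 to 0.167 CPM, for counting error only. Python 3.11.15, pandas 2.3.3 and matplotlib 3.10.9 made tables and plots.

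All 8 members are named. Of each other list, up to 3 genes with the smallest p-values are named, and of each member the 3 genes closest in pattern. Other genes with values were chosen after their values were seen. Members and lists were chosen with earlier results of these data known.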

Additional observations from a re-analysis of the deposited data

How the results depend on the processing

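Under 13 alternatives, Lox, Loxl4, Plod1 and Plod3 kept their direction. DESeq2 called 138 genes higher and 143 lower, Lox among the former at a log2 fold change of 1.37, against 0 and 0 in edgeR's quasi-likelihood test and every other alternative. Loxl2 turned sign with limma-voom (-0.012) and with the replicate block (-0.011). With each tumor left out in turn, log2 fold changes ranged from 1.15 to 1.60 for Lox, -0.27 to 0.13 for Loxl1, -0.23 to 0.36 for Loxl2, -0.30 to 0.18 for Loxl3, -0.99 to -0.45 for Loxl4, 0.29 to 0.70 for Plod1, -0.41 to 0.23 for Plod2 and -0.50 to -0.13 for Plod3. The sign of Loxl1 turned without EMT6-P replicate 2 or EMT6-PTR replicate 2, that of Loxl2 without EMT6-P replicate 1 or EMT6-PTR replicate 2, and that of Loxl3 and Plod2 without EMT6-P replicate 2 or EMT6-PTR replicate 3, and the cause was not tested. Adjusted p-values of Lox ranged from 0.00266 (DESeq2) to 0.865 (edgeR's quasi-likelihood test without EMT6-P replicate 1).

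Tumors with the same replicate number had correlations of their deviations across genes of 0.259, 0.253 and 0.038. Between tumors with different numbers these ran from -0.286 to 0.098. The labels name no animals, so the main fit did not take the numbers as pairs. Whether they are pairs was not settled by these values. With the replicate block, 0 genes were called and the log2 fold change of Lox was 1.28 (adjusted p 0.598, edgeR's quasi-likelihood test). Of 40 differences of the metastasis from EMT6-PTR under other scalings, prior counts or left-out tumors, 0 moved by more than the spread. That spread was wide, an SD of 0.44 to 0.72 among EMT6-PTR tumors on the log2 scale. Signs turned for Loxl2 (-0.037) without EMT6-PTR replicate 1 (0.073) or 2 (0.245). They also turned for Loxl4 (0.26) without replicate 3 (-0.12), and for Plod3 (-0.093) without replicate 1 (0.056) or 2 (0.035). Mean transcript length moved 10 of 16 family shares. Medians of the gene lists moved by more than the spread in 15 settings and did not in 73, and 3 tumors per group and 1 metastasis limit what these data can show.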

Other observations

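Of 10 fibroblast markers 6 had means at least 2-fold above EMT6-P (6.27% of all genes tested), with a median log2 fold change of 1.37. The log2 fold change was above 0 for 8 and below 0 for 2, Thy1 at -0.88 and Pdpn at -0.33. EMT6-P and EMT6-PTR overlapped for each of the 10. In edgeR's quasi-likelihood test 0 of the 10 were called and 2 had an unadjusted p under 0.05, against 0 and 4 with DESeq2 and 0 and 0 with limma-voom. Their median lay -0.18, 0.38 and 2.32 from the EMT6-P mean in EMT6-PTR replicates 1 to 3 on the log2 scale. Tgm2, a transglutaminase that crosslinks matrix proteins by an isopeptide bond, was at 694 CPM in the metastasis and at 203 to 427 CPM in the primary tumors.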
